A study of Mus musculus with 3 samples.

Results

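The transcription factors that mark naive pluripotency were examined in ALSCs, mouse pluripotent stem cells derived from the post-implantation epiblast in medium with Activin A and LIF. The labels call them embryonic stem cells, while the paper treats them as a primed line and as distinct from naive embryonic stem cells. The 9 genes were *Klf2*, *Klf4*, *Klf5*, *Esrrb*, *Nr5a2*, *Nr0b1*, *Tfcp2l1*, *Zfp42*, and *Tbx3*, chosen by symbol from the 55421 named genes of a table of RNA-seq counts. Each symbol occurred once in that table. The 3 libraries, replicates 1, 2, and 3, made up a single group. They came from epiblasts of gastrulae at embryonic day 6.5, whose mothers were ICR mice and whose fathers carried the GOF/GFP transgene, a green fluorescent reporter driven by *Oct4* (*Pou5f1*) regulatory sequence. The labels do not say whether the replicates were separate lines or separate cultures, so the spread between them may be technical. Their columns in the count table are named EPI_AL_1, EPI_AL_2, and EPI_AL_3. They were matched to the ALSC samples by reading the name as epiblast and AL medium (Activin A and LIF), and by replicate number. The paper also describes epiALSCs, epiblast stem cells moved to this medium, which no sample label names. The count table has 3 further columns, named AF_SCs, which match no sample of this series and were not used here, so the levels below describe ALSCs alone.

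In conventional, naive mouse embryonic stem cells, pluripotency is held by a network of transcription factors that sits on top of the core factors OCT4, SOX2, and NANOG. LIF acts through STAT3, which raises *Klf4* and *Tfcp2l1*. WNT signalling relieves *Esrrb* and *Tfcp2l1* from repression by TCF7L1, and the MEK5-ERK5 pathway is an input to *Klf2*. Most of these factors decline when cells leave the naive state, while *Pou5f1* and *Sox2* stay on into the primed epiblast.

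The naive factors ranged from well expressed to a few counts or none. Levels are given as FPKM, fragments per kilobase of gene, scaled to the library's counts on named genes, as mean ± SD of the 3 libraries. *Klf5*, *Klf2*, and *Nr0b1* reached at least 1 FPKM in every library. *Esrrb*, *Nr5a2*, *Tfcp2l1*, and *Klf4* had more than 3 counts in every library but did not reach 1 FPKM in any of them. With the length of the longest coding transcript in place of the exon union, *Esrrb* would have 0.810, 1.33, and 1.19 FPKM and *Nr5a2* 0.876, 1.09, and 0.867 FPKM. *Zfp42* and *Tbx3* had at most 3 counts in each library, and 3 counts is the upper limit of a library with a count of 0. Thus 3 of 9 naive factors reached 1 FPKM in all libraries, beside 726 of 1530 genes (47.5%) to which the table gives a transcription factor family. All 9 genes together took 4803 counts, or 0.00876% of the counts on named genes. The median over the 9 genes was 0.759 FPKM, beside 0.978 FPKM over the genes given a transcription factor family.

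**Figure D1:**
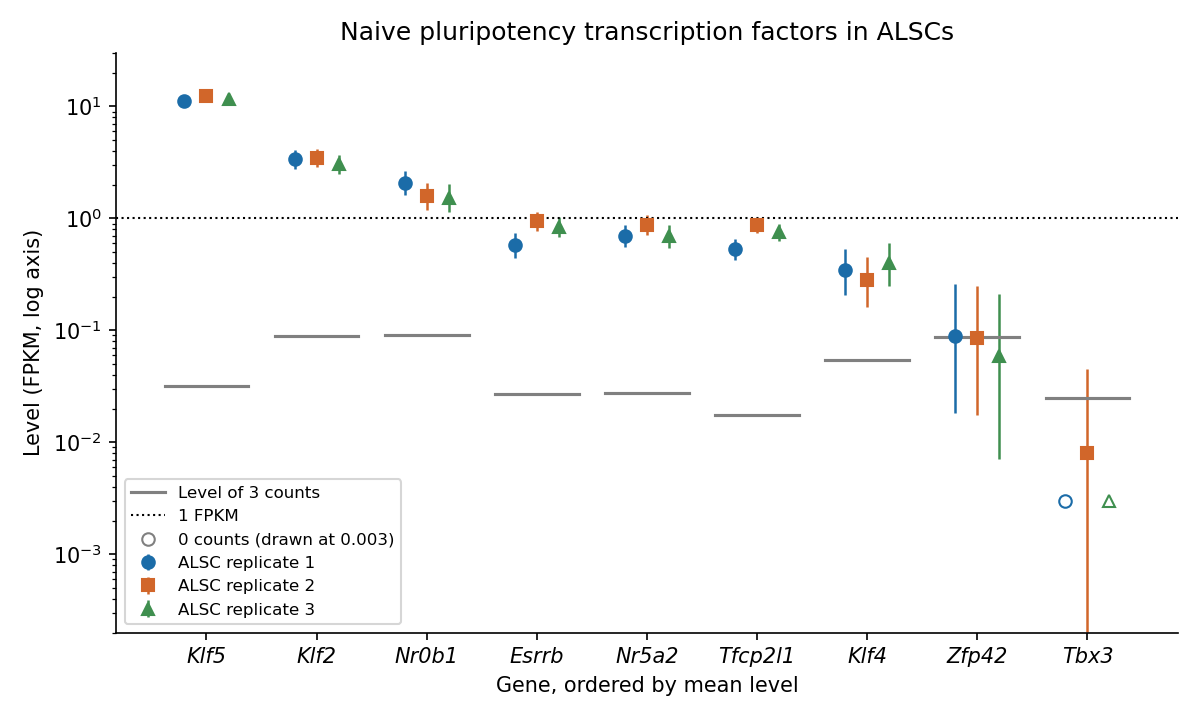
Level of each naive factor in each of the 3 ALSC libraries, in FPKM on a log axis, with exact Poisson 95% intervals as bars, which cover counting error only. The libraries of *Klf5*, *Klf2*, and *Nr0b1* sit above 1 FPKM, those of *Zfp42* lie at 0.0589 to 0.0882 FPKM, and *Tbx3* has a single count in replicate 2, with the libraries at 0 counts drawn as open symbols.

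Among the 3 Krüppel-like factors, which share much of their binding specificity and can stand in for each other in self-renewal, *Klf5* was by far the highest. *Klf5* (ENSMUSG00000005148, chr14:99298691-99315036, plus strand; all gene positions are GRCm38) had 1043, 1207, and 1101 counts in replicates 1, 2, and 3, or 11.1, 12.4, and 11.7 FPKM. Its mean of 11.7 ± 0.654 FPKM (SD, n = 3) was above that of 60.6% of expressed genes, meaning genes at 1 FPKM or more. With the transcript length its mean would be 18.2 ± 1.01 FPKM. *Klf2* (ENSMUSG00000055148, chr8:72319033-72321656, plus strand) had 113, 120, and 101 counts, or 3.38, 3.47, and 3.03 FPKM. Its mean was 3.29 ± 0.232 FPKM, which was 28.1% ± 2.34 of that of *Klf5*, or 18.1% ± 1.51 with transcript lengths. *Klf4* (ENSMUSG00000003032, chr4:55527143-55532466, minus strand), a direct target of STAT3 and a reprogramming factor, had only 19, 16, and 22 counts, or 0.345, 0.280, and 0.400 FPKM. Its exact Poisson 95% intervals ran from 0.207 to 0.538 FPKM in replicate 1 and from 0.251 to 0.606 FPKM in replicate 3, so 1 FPKM lay outside both. The ordering *Klf5* over *Klf2* over *Klf4* held in each library, with no overlap. *Klf4* stood at 2.93% ± 0.595 of *Klf5*, or 1.90% ± 0.386 with transcript lengths. Together these 3 genes held 79.0% ± 0.509 of the summed FPKM of the 9 naive factors, and *Klf5* alone held 60.3% ± 1.31 (82.6% ± 0.465 and 68.8% ± 0.992 with transcript lengths).

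*Klf2* was also the target of a quantitative PCR assay in the study. The paper reports this assay for AFSCs, a line similar to epiblast stem cells, and for AFSCs moved to medium with Activin A and LIF. Those are not the cells of the libraries here. From RNA-seq, the paper also lists *Klf2* and *Nr5a2* among genes higher in ALSCs than in epiblast stem cells, which have no library here. The primers are shown because they say which part of the transcript that assay reads. Both were found by matching to the *Klf2* transcript, and are written 5′ to 3′.
Klf2 forward: gagcctatcttgccgtccttt
Klf2 reverse: cacgttgtttaggtcctcatcc
The forward primer lies in exon 1 (chr8:72319090-72319110) and the reverse primer in exon 2 (chr8:72319461-72319482) of 3 exons. The product spans 117 bases of the spliced transcript and crosses the first intron.

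The 3 nuclear receptors differed by less among themselves than the Krüppel-like factors did. *Nr0b1* (ENSMUSG00000025056, chrX:86191764-86195947, plus strand), which encodes DAX1, a partner of OCT4, ESRRB, and NR5A2 that lacks the usual DNA-binding domain, had 68, 54, and 50 counts. Its levels were 2.08, 1.60, and 1.53 FPKM, with a mean of 1.74 ± 0.299 FPKM, and replicate 1 was the highest. *Esrrb* (ENSMUSG00000021255, chr12:86361117-86521628, plus strand), an orphan receptor that can replace *Nanog* function in naive cells, had 63, 107, and 92 counts. These gave 0.576, 0.945, and 0.843 FPKM and a mean of 0.788 ± 0.191 FPKM, and here replicate 1 was the lowest. *Nr5a2* (ENSMUSG00000026398, chr1:136842571-136960448, minus strand), which encodes LRH1 and keeps *Pou5f1* on in the epiblast, had 75, 97, and 74 counts. Its levels of 0.703, 0.878, and 0.695 FPKM had a mean of 0.759 ± 0.103 FPKM. The libraries of *Esrrb* and *Nr5a2* overlapped, whereas the lowest *Nr0b1* library was above the highest *Esrrb* library.

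*Tfcp2l1* (ENSMUSG00000026380, chr1:118627945-118685168, plus strand), a CP2-family factor that carries the LIF-STAT3 signal, had 91, 153, and 128 counts. Its levels were 0.533, 0.866, and 0.752 FPKM, with a mean of 0.717 ± 0.169 FPKM, and replicate 1 was again the lowest. *Tfcp2l1* is the longest of the 9 genes, with 9438 bases of exon, so its counts exceeded those of *Nr0b1* although its level per length was lower.

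*Zfp42* (ENSMUSG00000051176, chr8:43295063-43306980, minus strand) encodes REX1, a zinc finger protein whose expression is widely used to mark naive cells. It had 3, 3, and 2 counts, or 0.0882, 0.0852, and 0.0589 FPKM. The exact Poisson 95% interval in replicate 1 ran from 0.0182 to 0.258 FPKM. *Tbx3* (ENSMUSG00000018604, chr5:119670669-119684724, plus strand), a T-box factor that supports self-renewal, had 0, 1, and 0 counts. For these genes the limit of 3 counts stood at 0.0873 and 0.0248 FPKM, averaged over the libraries. *Zfp42* thus had reads in every library but more than 3 counts in none, and *Tbx3* had a single read in all. No fold between them was computed.

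Ordered by mean level, the naive factors ran *Klf5*, *Klf2*, *Nr0b1*, *Esrrb*, *Nr5a2*, *Tfcp2l1*, *Klf4*, *Zfp42*, and *Tbx3*. Of the 8 pairs of neighbours, only *Esrrb* with *Nr5a2* and *Nr5a2* with *Tfcp2l1* had libraries that overlapped. The ratio of means was 3.56 for *Klf5* over *Klf2*, 1.90 for *Klf2* over *Nr0b1*, 2.20 for *Nr0b1* over *Esrrb*, and 2.10 for *Tfcp2l1* over *Klf4*. With transcript lengths the ratio was 5.53 for *Klf5* over *Klf2* and 1.57 for *Nr0b1* over *Esrrb*. An exact sign test over 3 libraries cannot go below p = 0.25, so the order is given without a test.

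The promoters of 4 naive factors are shown because their levels differ, from *Klf2* and *Nr0b1* above 1 FPKM through *Klf4* to *Zfp42* at 2 or 3 counts per library. Each is the 250 bases before a RefSeq transcription start, on GRCm38.p6, written 5′ to 3′ on the gene's strand. RefSeq promoters were matched for 7 of the 9 genes, but not for *Klf5* and *Tbx3*, the genes with the highest and the lowest level. Capitals mark CCNCNCCC, the GC-box and CACCC-like letters to which Krüppel-like factors are known to bind, and ATGCAAAT, the octamer recognised by OCT factors, on either strand.
Klf2, chr8:72318812-72319061, plus strand: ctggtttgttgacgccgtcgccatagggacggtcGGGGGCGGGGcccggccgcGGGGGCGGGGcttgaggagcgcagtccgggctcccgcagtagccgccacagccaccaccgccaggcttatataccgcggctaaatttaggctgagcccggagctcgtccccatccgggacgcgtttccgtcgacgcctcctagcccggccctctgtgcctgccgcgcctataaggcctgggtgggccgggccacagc
Nr0b1, chrX:86191525-86191774, plus strand: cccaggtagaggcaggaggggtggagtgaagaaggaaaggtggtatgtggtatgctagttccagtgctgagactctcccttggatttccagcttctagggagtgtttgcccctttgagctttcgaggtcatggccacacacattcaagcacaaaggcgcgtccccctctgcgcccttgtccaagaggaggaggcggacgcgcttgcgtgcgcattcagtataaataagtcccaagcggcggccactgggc
Klf4, chr4:55532476-55532725, minus strand: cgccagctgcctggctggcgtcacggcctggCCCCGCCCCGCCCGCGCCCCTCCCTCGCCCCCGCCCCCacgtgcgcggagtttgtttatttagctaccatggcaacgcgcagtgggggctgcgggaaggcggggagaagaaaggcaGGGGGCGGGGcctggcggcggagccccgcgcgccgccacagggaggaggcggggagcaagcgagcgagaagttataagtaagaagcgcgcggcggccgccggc
Zfp42, chr8:43307010-43307259, minus strand: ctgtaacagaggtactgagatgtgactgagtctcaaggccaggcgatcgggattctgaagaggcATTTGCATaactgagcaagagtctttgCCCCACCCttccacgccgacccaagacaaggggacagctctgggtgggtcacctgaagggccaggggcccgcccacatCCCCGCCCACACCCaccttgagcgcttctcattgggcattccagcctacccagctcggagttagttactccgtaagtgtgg
The *Klf2* promoter held 29 CpG dinucleotides and 4 matches to CCNCNCCC, and that of *Klf4* held 32 CpG dinucleotides and 9 matches, with overlapping matches counted. *Nr0b1* had 11 CpG dinucleotides and no match. *Zfp42* had 9 CpG dinucleotides, 3 matches to CCNCNCCC, and 1 octamer at position -186 from the start. Among all 32851 RefSeq promoters of this length the median was 6 CpG dinucleotides, and 93.2% had fewer than *Klf2* and 95.4% fewer than *Klf4*. CCNCNCCC occurred in 45.9% of all promoters and the octamer in 1.60%. *Klf2* and *Klf4*, whose promoters were both rich in CpG, had mean levels of 3.29 and 0.342 FPKM. A relation between CpG content and level was not tested. Neither AAGGTCA, an ESRRB and NR5A2 half-site that 4.08% of promoters held, nor ATCAAAG, a TCF site that 3.21% held, occurred in a matched promoter of a naive factor. TTCNNNGAA, a STAT site, occurred in 7.02% of promoters and in 1 of *Esrrb*. A match to such letters is not a bound site, and sites outside these windows were not searched.

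Ranked with the 1530 genes that the table gives a transcription factor family, all 9 naive factors were below the 4 core factors. *Klf5* was 158th, *Klf2* 446th, and *Nr0b1* 643rd. *Esrrb*, *Nr5a2*, and *Tfcp2l1* stood close together at ranks 803, 808, and 824, and *Klf4*, *Zfp42*, and *Tbx3* at 916, 1061, and 1291. *Pou5f1* was at rank 2 with 676, 629, and 638 FPKM, *Nanog* at rank 7 with 191, 157, and 165 FPKM, and *Sox2* at rank 10 with 115, 118, and 125 FPKM. *Sall4*, a zinc finger partner of OCT4, was at rank 92 with 18.9, 19.95, and 18.7 FPKM. *Klf5* reached 1.82% ± 0.167 of the level of *Pou5f1*, *Klf2* 0.509% ± 0.0390, *Esrrb* 0.123% ± 0.0336, and *Tfcp2l1* 0.111% ± 0.0300. Summed over the 9 naive factors the level was 18.8, 20.5, and 19.1 FPKM, which was 2.04% ± 0.174 of the sum over the 4 core factors.

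**Figure D2:**
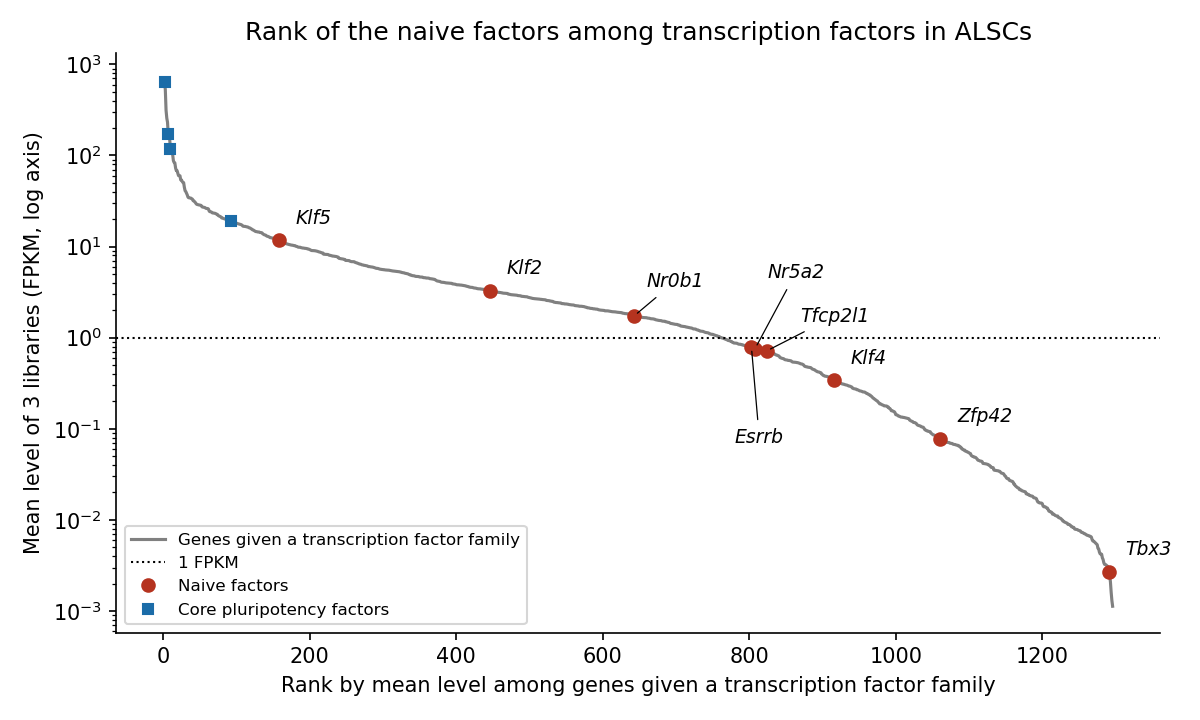
Mean level of the 3 ALSC libraries in FPKM, on a log axis, against rank among the 1530 genes given a transcription factor family, with genes at 0 counts not drawn. Red points mark the 9 naive factors, of which *Klf5*, *Klf2*, and *Nr0b1* lie above the dotted line at 1 FPKM, and blue squares mark the core factors *Pou5f1*, *Nanog*, *Sox2*, and *Sall4*, all above *Klf5*.

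Within their own gene families, the naive factors were mostly not the members with the highest level. Only *Nr5a2* and *Nr0b1* led, in 2 of the 7 families, and their relatives *Nr5a1* and *Nr0b2*, which act in steroidogenic tissue and liver, had 1 and 0 counts in all. Of the 17 Krüppel-like factors, 12 reached 1 FPKM in all libraries, led by *Klf10* at 21.5 ± 0.625 FPKM and *Klf16* at 17.8 ± 1.65 FPKM. *Klf5* was 5th in this family, *Klf2* 9th, and *Klf4* 15th, with *Klf10* 63.0-fold above *Klf4*. *Klf17*, another Krüppel-like factor, had 0, 0, and 1 counts. *Klf2*, *Klf4*, and *Klf5* together made up 13.99% ± 0.630 of the summed level of the family. *Esrrb* was 12.8-fold below *Esrra*, its widely expressed relative and a regulator of mitochondrial genes, which had 10.1 ± 0.822 FPKM. *Tfcp2l1* was 21.9-fold below *Ubp1*, another CP2 factor, which had 15.7 ± 2.11 FPKM, while *Tfcp2* itself had 2.93 ± 0.271 FPKM. *Zfp42* belongs with *Yy1*, which is expressed in most cells and here had 21.7 ± 1.78 FPKM, and the retrogene *Yy2* had 0 counts. In the group of *Tbx3*, *Tbx4* was the highest with 10, 9, and 9 counts, *Tbx2* had 0, 4, and 1, and *Tbx5* had 0.

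**Figure D3:**
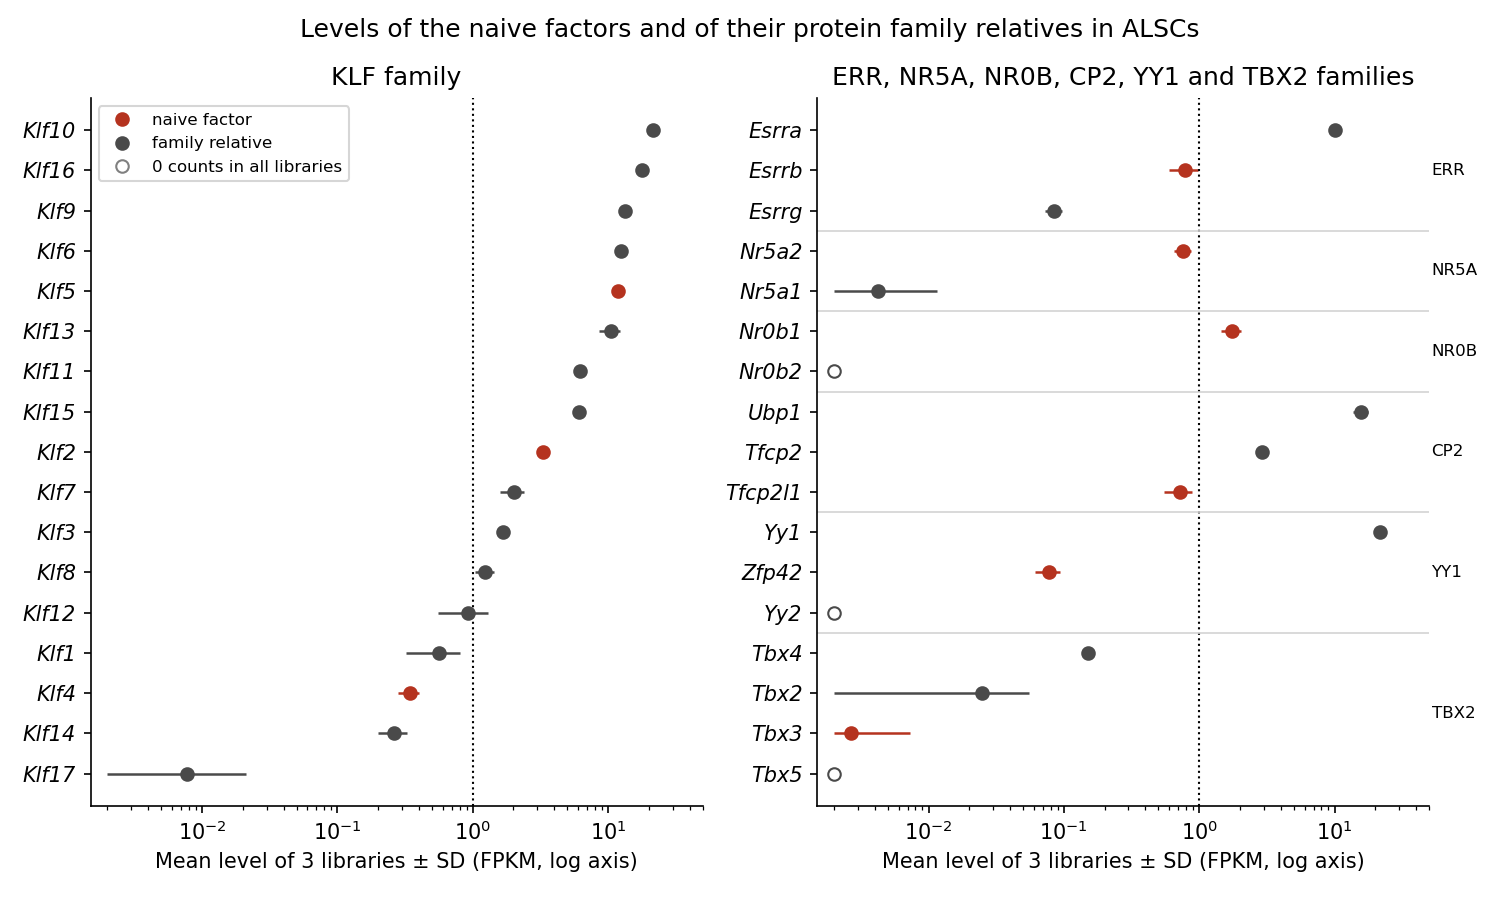
Mean level in FPKM, on a log axis, of each member of the 7 gene families that hold a naive factor, with SD over the 3 ALSC libraries as bars, which are cut at the left edge where the SD reaches the mean or beyond, and genes at 0 counts as open circles at the left edge. Red marks the naive factors, and *Klf10*, *Esrra*, *Ubp1*, *Yy1*, and *Tbx4* lie above the naive factor of their family.

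Listed genes of the signals and repressors known to act on the naive factors nearly all had RNA at 1 FPKM or more. Of all named genes 20.1% did so, and of those given a transcription factor family 47.5%. Whether any of these signals or repressors was active was not tested. All 6 genes of the LIF-STAT3 list reached 1 FPKM in every library. The receptor chains *Lifr* and *Il6st* had 1.37, 1.48, and 1.22 FPKM and 2.08, 3.81, and 3.58 FPKM. *Stat3* had 12.3, 18.8, and 17.8 FPKM. *Socs3*, a feedback inhibitor induced by STAT3, had 32.7, 36.8, and 35.4 FPKM. *Klf4* and *Tfcp2l1*, also STAT3 targets, had means of 0.342 and 0.717 FPKM. All 6 genes of the WNT list reached 1 FPKM too. *Ctnnb1*, the β-catenin gene, had 149, 188, and 197 FPKM and *Tcf7l1*, which encodes the repressor of *Esrrb*, had 24.6, 32.2, and 28.5 FPKM. In the ERK5 list 4 of 5 genes reached 1 FPKM, and *Mapk7*, the ERK5 gene itself, had a mean of 10.9 ± 0.772 FPKM beside the 3.29 FPKM of *Klf2*. The 6 genes of a list of repressors and other regulators of the network, which also holds *Tcf7l1*, were all above 1 FPKM, among them *Rlim*, whose product targets REX1 for degradation, at 10.5, 10.6, and 10.5 FPKM.

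Of 12 other naive markers that are not among the 9 factors, 5 reached 1 FPKM in every library, with a median of 0.955 FPKM. *Gdf3*, a TGFβ family ligand, was the highest at 13.2 ± 1.41 FPKM, while *Dppa3* had a mean of 1.05 ± 0.627 FPKM. Of 12 formative and primed factors, 11 reached 1 FPKM in every library, with a median of 11.6 FPKM. The exception was *Grhl2*, an epithelial regulator, at 1.02 ± 0.160 FPKM. The formative factors *Etv5*, *Pou3f1*, and *Otx2* had 41.0 ± 6.34, 22.6 ± 1.44, and 5.08 ± 0.472 FPKM. The summed level of the naive factors was 6.87% ± 0.155 of that of the formative and primed factors, with *Utf1* the highest of the latter at 108 ± 6.84 FPKM. Of the 103 listed genes other than the naive factors, 61 reached 1 FPKM in all libraries. Of all named genes 20.1% did so, and of genes given a transcription factor family 47.5%. The named genes include noncoding ones, while the listed genes all code for protein, so the share over all named genes is not a like comparison.

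**Figure D4:**
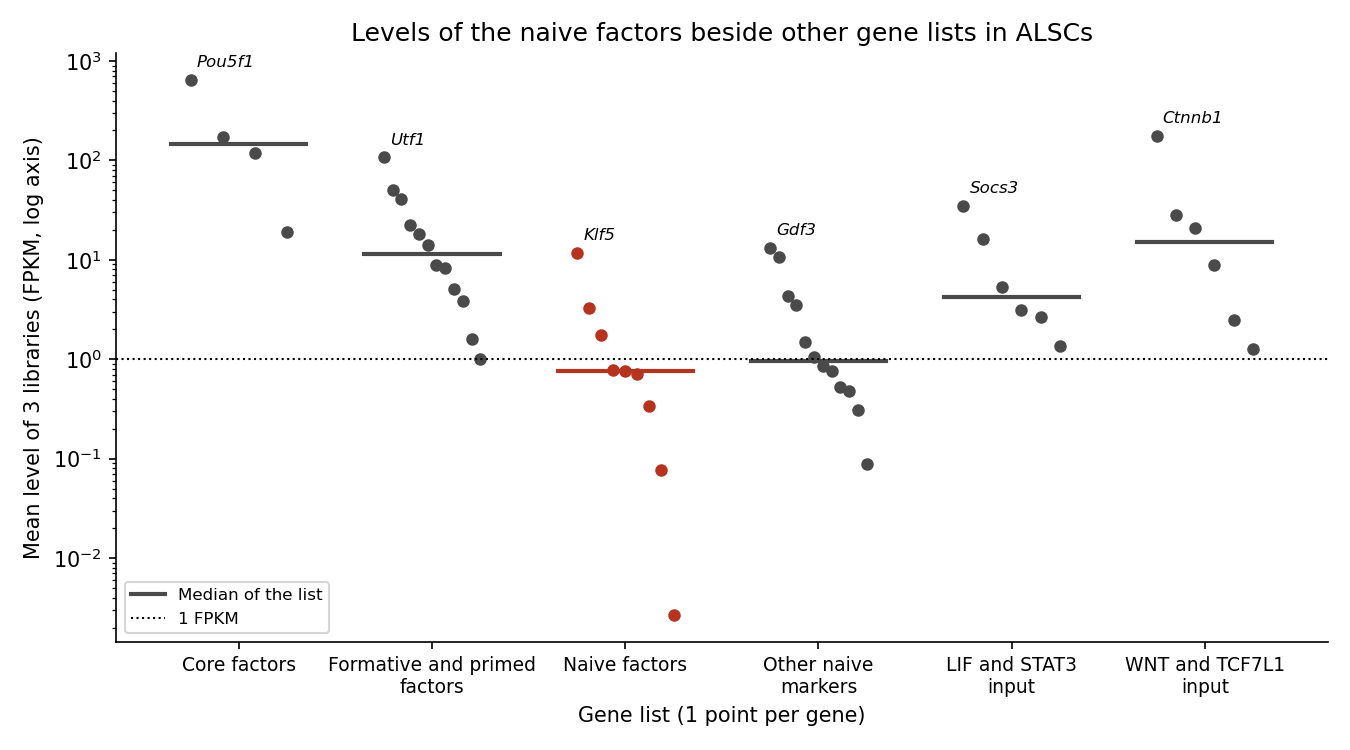
Mean FPKM over the 3 ALSC libraries, on a log axis, for each gene of the naive factors and of the lists set beside them, with 1 point per gene and the median of each list as a bar. The median of the naive factors is 0.759 FPKM, that of the other naive markers 0.955 FPKM, and that of the formative and primed factors 11.6 FPKM.

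Of the 7 naive factors with at least 10 counts in total, *Esrrb* and *Tfcp2l1* varied between the 3 libraries by more than counting error, and 47.2% of the 16944 genes tested did so. The test was a chi-square test of homogeneity against TMM library sizes, adjusted over all genes tested, and it covers counting error only. The adjusted p was 0.0399 for *Esrrb* and 0.0119 for *Tfcp2l1*, while it was 0.167 for *Nr0b1* and 0.424 to 0.613 for *Klf5*, *Klf2*, *Nr5a2*, and *Klf4*. The coefficient of variation was 24.2% for *Esrrb* and 23.6% for *Tfcp2l1*, where counting alone gives 10.7% and 8.98%. For *Klf5*, the factor with the most counts, it was 5.57% beside 2.99%. These coefficients were taken from FPKM on library totals, whereas the test used TMM library sizes. With library totals in the chi-square test the adjusted p of *Klf5* was 0.0624, beside 0.495 with TMM library sizes. *Klf2* varied by 7.04%, less than the 9.48% that counting gives. Of the lists set beside the naive factors, 3 of 4 core factors varied, 4 of 12 formative and primed factors, 4 of 11 tested naive markers, 3 of 6 genes of the LIF-STAT3 list, 4 of 6 of the WNT list, and 1 of 5 of the ERK5 list.

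*Esrrb* and *Tfcp2l1* were lowest in replicate 1 and highest in replicate 2. Relative to the mean of the others, on the log2 scale and with TMM library sizes, *Esrrb* was at -0.56 and *Tfcp2l1* at -0.53 in replicate 1, whereas *Nr0b1* was at 0.48. Replicate 1 also differed from the others by gene length over all genes. That trend was measured against the mean of all 3 libraries, not of the others. In replicate 1 it came to -0.19 at the length of *Tfcp2l1*, -0.09 at that of *Esrrb*, and 0.18 at that of *Nr0b1*. Being on another scale, these values cannot be subtracted from the log2 values above. With the trend removed the log2 values of replicate 1 were -0.25 for *Tfcp2l1*, -0.43 for *Esrrb*, and 0.20 for *Nr0b1*. The adjusted p was then 0.332 for *Tfcp2l1* and 0.169 for *Esrrb*, so neither passed, while 38.6% of all genes still did. Without replicate 1 the adjusted p was 0.6001 for *Tfcp2l1* and 0.762 for *Esrrb*, and 8.11% of genes passed. Without replicate 2 neither of them passed (adjusted p = 0.0594 and 0.0777, with 42.9% of genes passing), and without replicate 3 both did (0.00318 and 0.0134, with 46.7%). Over the alternatives tried it ranged from 0.00303 to 0.6001 for *Tfcp2l1* and from 0.0134 to 0.762 for *Esrrb*.

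**Figure D5:**
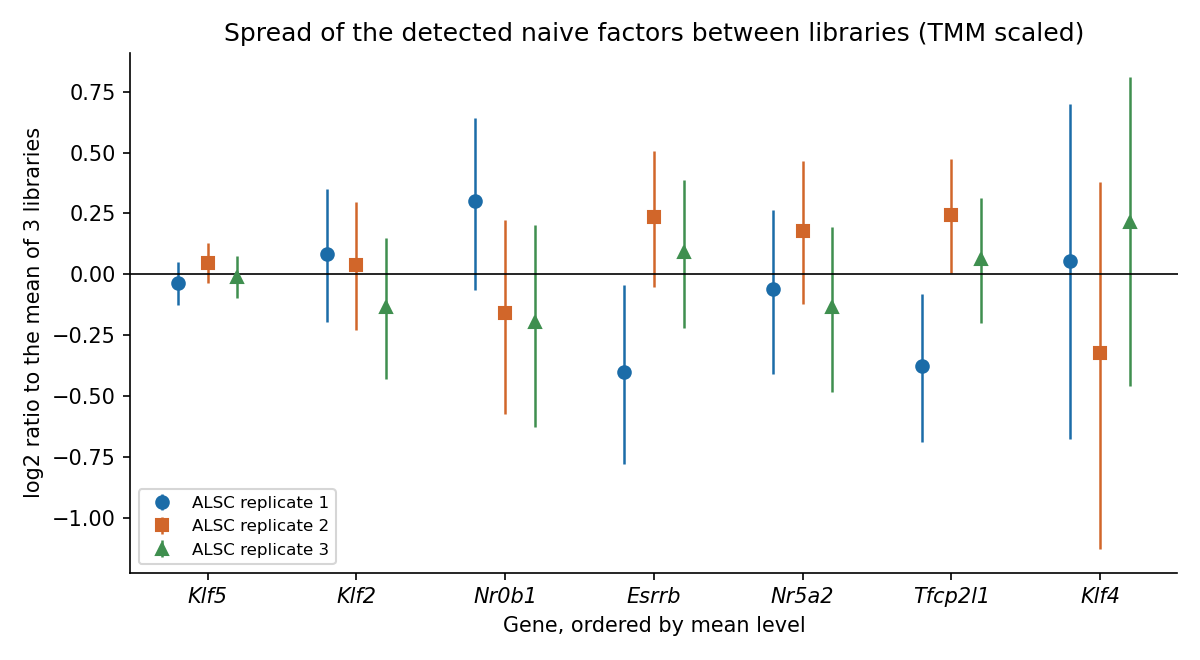
log2 ratio of each library to the mean of the 3 ALSC libraries, after TMM scaling, for the 7 naive factors with at least 10 counts, with exact Poisson 95% intervals as bars. Replicate 1 lies lowest for *Esrrb* and *Tfcp2l1* and highest for *Nr0b1*, and the intervals of *Klf5* are the narrowest.

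Several naive factors are also used by other cell types, so markers of those types were read in the same libraries. Of 7 trophoblast markers, where *Klf5* and *Esrrb* are also known, 5 had 3 counts or fewer in at least 1 library and only *Ascl2* reached 1 FPKM, at 3.10 ± 0.125 FPKM. The summed trophoblast markers ranged from 3.55 to 3.62 FPKM, and *Cdx2*, *Elf5*, and *Hand1* had 1 count each over all libraries and *Tpbpa* had 0. Of 7 endoderm markers, where *Nr5a2* is known from visceral endoderm and liver, only *Foxa2* reached 1 FPKM in all libraries. Their sum ranged from 1.83 to 3.01 FPKM, 4 had 3 counts or fewer in at least 1 library, and *Ttr* was at 0. Of 8 fibroblast markers, where *Klf4* is also known, *Thy1*, *Col1a1*, and *Pdgfrb* reached 1 FPKM, the sum ranged from 12.8 to 14.6 FPKM, and *Dcn* and *Lum* were at 0. Of 5 endothelial markers, where *Klf2* is also known, none reached 1 FPKM, the sum ranged from 0.606 to 1.17 FPKM, and *Tie1* was at 0. In bulk RNA, fewer cells that express a naive factor and less RNA per cell cannot be told apart.

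Reads of these genes could be told from those of other genes along most of their length. In the longest coding transcript of GENCODE M21, every 50-base word of *Klf2*, *Nr0b1*, and *Esrrb* was unique, and 98.6% to 99.9% of those of *Klf4*, *Klf5*, *Nr5a2*, *Tfcp2l1*, and *Tbx3*. For *Zfp42* the share was 90.8%, the rest being shared with the pseudogene *Zfp42-ps1*, so its few counts may be split with that copy. *Tbx3* overlaps the antisense gene *Tbx3os1* over 115 bases of exon. *Tfcp2l1* overlaps the small nuclear RNA gene *Gm23497*, on the same strand, over 130 bases of exon. Both *Tbx3os1* and *Gm23497* had 0 counts.

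Among the listed genes outside each factor's own list, the closest in level over the 3 libraries was *Mapk7* for *Klf5*, at a Euclidean distance of 0.175 in log2(FPKM + 1). The closest was *Ascl2* for *Klf2* (distance 0.206) and *Klf3* for *Nr0b1* (0.2002). *Klf12* was the closest for both *Esrrb* and *Tfcp2l1*, at distances of 0.254 and 0.340. *Nr5a2* was nearest to *Grhl2* at a distance of 0.380 and *Klf4* to *Prdm14*, a naive-state repressor of differentiation genes, at 0.157. These distances rest on 3 libraries that share depth and processing, and they mostly reflect similar mean levels.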

How the data were processed

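Polyadenylated RNA was sequenced in 3 ALSC libraries made with the Illumina TruSeq kit from RNA extracted, per the labels, with Trizol. The submitters' processing notes name HISAT2 2.0.5, and the table's coordinates are on GRCm38. The counting program and its treatment of strand and of multiply mapped reads are not given in the sources used here. The authors deposited raw counts per gene with gene lengths, which equal the union of annotated exons for all 9 genes. The table's 3 other count columns, named AF_SCs, match no sample here and were not used.

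From these counts FPKM was computed per library with the table's gene length and the total on the 55421 named genes (18088505, 18724038, and 18037342 in replicates 1, 2, and 3). The 317 rows without a name held 0.165%, 0.182%, and 0.182% of the counts and were left out. Exact Poisson 95% intervals and the limit of 3 counts cover counting error only, since reads are not independent molecules. Variation between libraries was tested by chi-square against edgeR TMM library sizes in genes with 10 or more counts, with Benjamini-Hochberg adjustment over all of them and a threshold of 0.05. The length trend was the median log2 ratio of each library to the mean of the 3 libraries, in 20 groups of genes by length. DESeq2 size factors, library totals, other thresholds and filters, and each replicate left out were alternatives. Promoters came from RefSeq on GRCm38.p6, and transcripts from GENCODE M21. The tools were edgeR 4.0.16 and DESeq2 1.42.0 in R 4.3.3, and matplotlib 3.10.9, pandas 2.3.3, SciPy 1.17.1, and NumPy 2.4.6 in Python 3.11.15.

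The 9 genes and all lists were chosen with earlier results of these data known. All 9 were named, together with listed genes that led a family or list, were at or under the limit, varied between libraries, or lay nearest to a naive factor. Other listed genes given as examples of a signal or state (such as *Lifr*, *Sox2*, *Sall4*, *Rlim*, *Pou3f1*, and *Otx2*) were chosen after their values were seen.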

Additional observations from a re-analysis of the deposited data

How the results depend on the processing

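No paired analysis was possible because all libraries belong to 1 condition. The levels of the 9 genes moved by less than 1 SD in all 54 comparisons with other library sizes or with 1 library dropped, where dropping a library cannot do otherwise. With the length of the longest coding transcript, an alternative chosen after seeing the data, the mean levels rose to 18.2 FPKM for *Klf5*, 1.11 FPKM for *Esrrb*, and 0.946 FPKM for *Nr5a2*, and 3 genes still reached 1 FPKM in all libraries. At a threshold of 0.5 FPKM, 6 genes passed. The number of naive factors varying between libraries was 1 with no filter beyond 1 count, where *Esrrb* had an adjusted p of 0.0548, 0 with the length trend removed, and 0 to 2 with 1 library left out. It was 0 without replicate 1 and also 0 without replicate 2, where *Esrrb* and *Tfcp2l1* had adjusted p of 0.0777 and 0.0594. Of 49 adjusted p-values under an alternative, 42 kept their side of the threshold, and 25 of 30 counts stayed within 1.5 times the reported one. Depth limits *Zfp42* and *Tbx3* most, since 1 count more or less changes their level.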
